A study of Mus musculus with 69 samples.

Results

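The 10 genes described here had less RNA in mouse embryonic stem (mES) cells and gastruloid cells without p53 than in wild-type cells, from under 1% to 23.99% of the wild-type level. They are Eda2r, Inpp5d, Ptprv, Inka2, Anxa8, Ano3, Svop, Zfp750, D630023F18Rik and 5830418P13Rik. They were picked by symbol from the 55367 gene symbols of a bulk RNA sequencing count table, as the strongest falls in p53KO–emiRFP against WT–emiRFP cells at all 6 time points. Because measured values chose them, their levels in those populations are given as a description with no test. Tests are given for WT–mCherry cells, whose libraries the choice did not use. WT–mCherry cells of WT + WT gastruloids shared these with the WT–emiRFP cells of the choice. Their tests over time are therefore not independent of it.

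The 69 libraries, 3 of each of 23 groups, came from a study of competition between wild-type and p53-deficient cells in mosaic gastruloids, which are aggregates of mES cells that lay down early embryonic tissues in culture. All cells derive from the mES line E14Tg2A and carry a fluorescent histone: WT–mCherry cells an H2B–mCherry fusion driven by the EF1α promoter, and WT–emiRFP cells an H2B–emiRFP670 fusion driven by the CAG promoter. The p53KO–emiRFP line is a single clone made from WT–emiRFP cells, with a homozygous frameshift in Trp53 and selected with Nutlin-3a, so the loss of p53 and other properties of that clone cannot be told apart. Gastruloids were seeded from 150 WT–mCherry cells with 150 WT–emiRFP cells (WT + WT) or with 25 p53KO–emiRFP cells (WT + p53KO). Each clone was sampled as mES cells at 0 h, and its cells were sorted by FACS from gastruloids at 48, 72, 96, 120 and 144 h, with a pulse of the Wnt activator CHIR99021 between 48 and 72 h in all of them. The purity of the sorted cells was not checked, by the study's own statement.

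p53 is a transcription factor that is held low by the ubiquitin ligase Mdm2 and accumulates under stress. It binds response elements made of a pair of half-sites and switches on genes for cell cycle arrest, DNA repair and apoptosis. In early embryos and their models, cells with more p53 activity than their neighbours are known to be lost by competition. Of the 10 genes, Eda2r encodes a receptor of the TNF receptor family that binds ectodysplasin A2 and is a known p53 target. Inpp5d encodes the phosphatidylinositol 5-phosphatase SHIP1 and is best known from blood cells. Ptprv belongs to the receptor-type tyrosine phosphatases, and Inka2 encodes an inhibitor of the kinase Pak4. Anxa8 encodes a calcium-dependent membrane-binding annexin, Ano3 a member of the anoctamin family of membrane proteins and Svop a transporter-like protein of synaptic vesicles. Zfp750 encodes a transcription factor of epidermal differentiation, D630023F18Rik is a protein-coding gene with only a clone name, and 5830418P13Rik is annotated as an antisense transcript.

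RefSeq promoter windows of GRCm38.p6, here the 250 bases before a transcript start, existed for 6 of the 10 genes in 8 windows and were searched on both strands for the p53 half-site consensus. An exact half-site lay in 2 of these windows, and 7.13% of all 32851 windows held one. The windows of D630023F18Rik (chr1:65123215-65123464, minus strand) and Anxa8 (chr14:34085729-34085978, plus strand) are shown because the first held the only pair of half-sites with at most 2 mismatches and the second belongs to the gene with the largest mean fall. Capitals mark the half-sites.
D630023F18Rik: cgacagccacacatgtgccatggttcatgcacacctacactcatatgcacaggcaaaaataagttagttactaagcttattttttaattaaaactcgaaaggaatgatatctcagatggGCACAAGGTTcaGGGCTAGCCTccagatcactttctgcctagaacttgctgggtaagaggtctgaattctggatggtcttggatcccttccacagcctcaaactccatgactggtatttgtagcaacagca
Anxa8: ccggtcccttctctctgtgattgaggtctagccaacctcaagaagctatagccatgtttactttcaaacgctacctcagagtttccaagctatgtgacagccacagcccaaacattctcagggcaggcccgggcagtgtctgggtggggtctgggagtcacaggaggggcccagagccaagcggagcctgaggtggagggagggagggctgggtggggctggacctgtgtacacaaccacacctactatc
The pair upstream of D630023F18Rik began 131 bases before the transcript start, with a spacer of 2 bases. Pairs with at most 2 mismatches and a spacer of at most 3 bases lay in 1.09% of all windows. The other exact half-site, GGGCTTGTCT, began 81 bases before a start of Inka2 (window chr3:105705208-105705457, plus strand). The windows of Anxa8, Eda2r, Inpp5d and Ano3 held no exact half-site, which says nothing of sites elsewhere. A match is a description of the sequence, and no binding was measured here.

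In the Gencode annotation of the same build, Eda2r is at chrX:97333840-97377216, Inpp5d at chr1:87620312-87720507, Ptprv at chr1:135108497-135132594 and Inka2 at chr3:105704599-105720842. Anxa8 is at chr14:34085981-34100571, Ano3 at chr2:110655201-110950923, Svop at chr5:114026910-114091570 and Zfp750 at chr11:121510978-121519333. D630023F18Rik is at chr1:65105285-65123214 and 5830418P13Rik at chr9:103423578-103461260. Ptprv is annotated as a processed transcript, and 5830418P13Rik lies opposite to Bfsp2, so that without stated strand counting their reads cannot be told apart.

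Libraries had 26722541 to 72981570 counts with a median of 53098728. Counts divided by a size factor (median of ratios over all libraries) are called normalised counts. Trp53 was at 2331, 2533 and 2589 normalised counts in the p53KO–emiRFP mES libraries and at 27510.5, 25304 and 23677 in those of WT–emiRFP. Its p53KO–emiRFP level was 8.36% to 11.3% of that of WT–emiRFP at the 6 time points. Among WT–mCherry mES libraries, replicate 1 had the highest level of 9 of the 10 genes, with Ptprv at 1427 against 725 and 670, and the highest mitochondrial share of all libraries (1.77%).

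Without p53, the 10 genes were at 0.583% to 23.99% of the level of WT–emiRFP cells, with groups under 3 counts set to a floor of 3 counts. In 48 of 60 combinations of gene and time point the p53KO–emiRFP level was under 5% of that of WT–emiRFP, and in 10 it was under 1%. In the other 12 it was 5% or more, with the highest values for Svop and Inpp5d at 0 h and Inka2 and Ano3 at 144 h. All 10 genes had at least 13 counts in every library of the wild-type clones, whereas 31 of 180 values in the 18 p53KO–emiRFP libraries were 0. Over all genes tested, 0.0815% (0 h), 0.13% (48 h), 0.237% (72 h), 0.131% (96 h), 0.529% (120 h) and 0.748% (144 h) were under 5%. The p53KO–emiRFP and WT–emiRFP libraries did not overlap in any of the 60 combinations, and 13.9%, 18%, 21.2%, 20.6%, 27.4% and 35.2% of all genes had such lower groups without overlap at the respective times. As this contrast chose the genes, nothing is read from these counts.

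**Figure D1:**
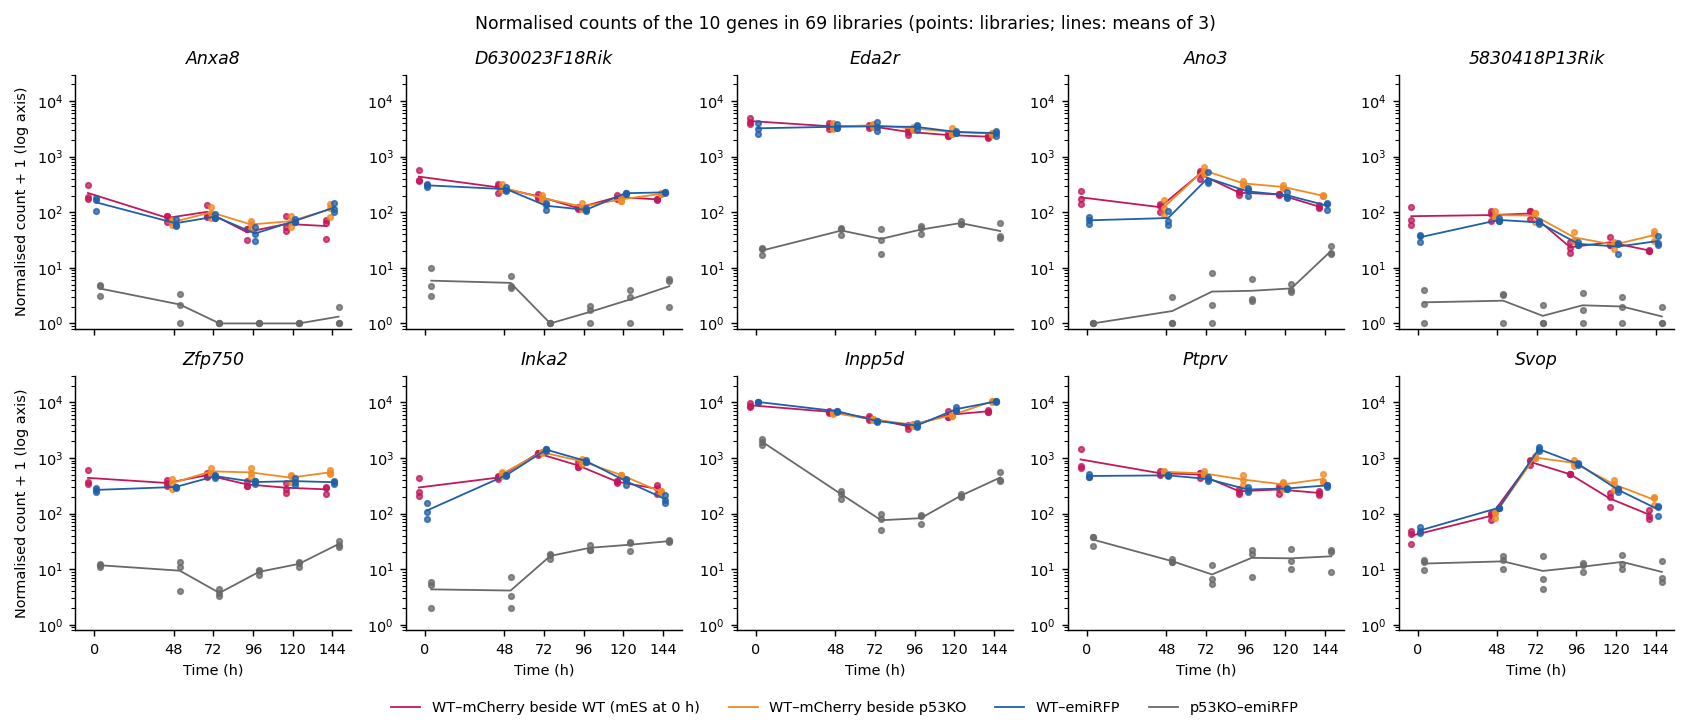
Normalised counts plus 1 (log axis) of each gene against time in hours. Points are the 69 libraries, lines join the means of 3, and colours give the population. The p53KO–emiRFP libraries lie below all others in each panel, and the gap is smallest for Svop and Inpp5d at 0 h and for Inka2 and Ano3 at 144 h.

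The receptor gene Eda2r kept a high level in wild-type cells at all times and a low one without p53. It was at 2546.5, 3165.5 and 3990.5 normalised counts in WT–emiRFP mES cells and at 20.7, 15.8 and 21.8 in p53KO–emiRFP mES cells. At 144 h it was at 2331, 2667 and 2949 in WT–emiRFP and at 63.7, 37.1 and 33.9 in p53KO–emiRFP cells. Its share of the WT–emiRFP level ranged from 0.602% at 0 h to 2.27% at 120 h.

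Inpp5d, the most abundant of the 10, was not close to silent in mES cells without p53. There it was at 1731, 2179 and 1964 normalised counts against 10207, 10211 and 10121 in WT–emiRFP, or 19.3% (exact 95% interval 18.7% to 19.8%, counting error only). In sorted cells it was at 255, 225 and 180 in p53KO–emiRFP at 48 h and at 79.5, 96.0 and 49.3 at 72 h. The WT–emiRFP libraries of 72 h had 4694, 4513 and 4635. The share was 1.66% at 72 h and 4.26% at 144 h, so the mES cells of this clone stood apart from all its gastruloid samples.

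Ptprv stayed a little higher than most, between 1.65% of WT–emiRFP at 72 h and 6.90% at 0 h, and was under 5% at 2 of 6 times. Inka2 was higher late than early. It was at 4.15, 0.990 and 4.85 normalised counts without p53 in mES cells and at 31.9, 30.1 and 31.0 at 144 h, where WT–emiRFP had 215, 153 and 175. Its share was 0.601% at 48 h and 17.1% at 144 h (exact 95% interval 13.7% to 21.2%).

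Anxa8 was the gene with the lowest counts without p53, 13 in all 18 libraries, of which 12 had none. At 72 h it was at 78.0, 78.0 and 91.6 normalised counts in WT–emiRFP and at 0 in all 3 p53KO–emiRFP libraries. Against the floor of 3 counts over the group, its level was at least 80.5-fold lower at 72 h, at least 46.5-fold lower at 96 h and at least 70.1-fold lower at 120 h. D630023F18Rik was likewise at 0 in all 3 p53KO–emiRFP libraries at 72 h, where WT–emiRFP had 110, 136 and 144, at least 127-fold lower by that floor. Its highest share was 1.72% at 48 h.

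Ano3 was at 0 in all p53KO–emiRFP mES libraries, at least 64.9-fold lower than the 59.3, 81.5 and 70.9 normalised counts of WT–emiRFP. Its level without p53 was highest at the end, with 3.07, 2.72 and 4.01 at 120 h and 17.2, 17.0 and 23.3 at 144 h. WT–emiRFP cells had 146, 107 and 140 at 144 h, which gives a share of 14.5% (exact 95% interval 10.9% to 19.0%). Zfp750 also had its highest share at 144 h, 7.45%, and its lowest at 72 h, 0.583%.

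Svop stayed at few counts without p53 at all times, while its wild-type level varied widely. In p53KO–emiRFP cells its group means ranged from 7.93 to 12.8 normalised counts, and in WT–emiRFP from 48.6 at 0 h to 1443 at 72 h. Its share was 23.99% at 0 h, 9.97% at 48 h and 0.619% at 72 h. 5830418P13Rik had few counts in every population, 17 in all p53KO–emiRFP libraries together, or 1 to 4 at a time point. Its share was 4.51% at 96 h (exact 95% interval 1.20% to 12.0003%) and, at 1 count, under the 1.59% of the floor at 72 h.

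**Figure D2:**
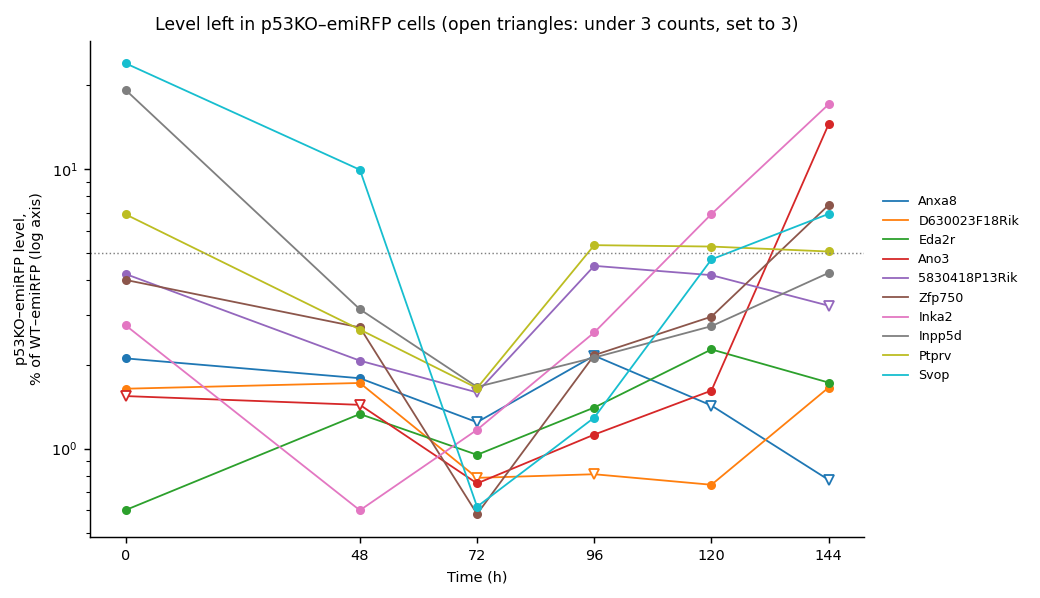
Level of each gene in p53KO–emiRFP cells as a percentage of WT–emiRFP (log axis) against time in hours. Dots are ratios of 3 libraries each, open triangles are groups with under 3 p53KO–emiRFP counts, set to a floor of 3, and the dotted line marks 5%. All 10 genes lie under 5% at 72 h, and 5 of 10 at 144 h.

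The shares were lowest on the whole at 72 h. The median over the 10 genes was 3.39%, 1.93%, 1.06%, 2.13%, 2.86% and 4.67% at 0, 48, 72, 96, 120 and 144 h, with the same floor. The median fitted log2 fold change was −4.85, −5.57, −7.05, −5.86, −5.12 and −4.42 at these times. Taken from the ratios of group means, with a floor of 3 counts, the medians were −4.91, −5.70, −6.57, −5.55, −5.13 and −4.42. The median fitted change of all genes was between −0.01 and 0.05.

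Ranked by the weakest of their 6 fitted falls among 16307 genes tested at all times, the 10 genes lay between rank 1 (D630023F18Rik, −5.82) and rank 30 (Svop, −2.04). The 3 genes outside the set with the strongest weakest fall were Gm37795 (−4.85), Gm13067 (−4.47) and the cyclin gene Ccng1 (−3.24). Ranked by the mean fall the 10 genes held places between 1 and 13, with Gm13067, Gm37795 and Gm38103 between them, and the next gene was Nkx2-9 (mean −4.49 against −4.53 for Svop). Gm13067 and Gm37795 are 11563 bases apart on chromosome 4, and Gm38103 lies 913 bases from Nkx2-9 on chromosome 12. Nkx2-9 and Gm38103 were named after their values were seen.

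Most genes of the wider p53 pathway fell as well. Of 40 p53 target genes listed for comparison, all tested, 29, 30, 30, 30, 30 and 29 were lower without p53 at 0, 48, 72, 96, 120 and 144 h by edgeR's quasi-likelihood test (Benjamini-Hochberg adjusted p under 0.05 over all genes), and 0, 1, 2, 3, 3 and 5 higher. Of all genes tested, 4.16%, 11.7%, 15.7%, 13.8%, 23.7% and 32.2% were called lower and 1.97%, 10.3%, 13.4%, 9.45%, 27.3% and 33.2% higher. At these times 9, 6, 0, 2, 0 and 6 of the targets were below the highest log2 fold change among the 10 genes. The list had a median log2 fold change of −0.99, −1.32, −1.51, −1.22, −1.03 and −1.15. The lowest means over time were those of Ccng1 (−4.13), the apoptosis-linked Phlda3 (−3.94) and Trp53inp1 (−3.66). Ccng1, for instance, was on average at 29605 normalised counts in WT–emiRFP and at 1062 in p53KO–emiRFP cells at 72 h.

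With the replicate number as a block, 3 targets in place of 1 were higher at 48 h, where 22.3% of all genes were, and the other counts changed by at most 2. A few targets were called higher without p53 at more than 1 time. Pmaip1, which encodes the pro-apoptotic protein Noxa, was higher at 5 of 6 times, by 1.35 on the log2 scale at 96 h (± 0.09 SE, edgeR adjusted p = 5.3e-08). Ddb2, a DNA damage recognition gene, was higher at 3 times (0.40 ± 0.09 SE at 120 h, edgeR adjusted p = 0.0026). Ddit4, a stress-induced inhibitor of mTOR, was higher at 2 times (0.94 ± 0.16 SE at 120 h, edgeR adjusted p = 0.00027) and lower at 2. With the block, the metabolic regulator gene Tigar was higher at 48 h (0.11, edgeR adjusted p = 0.020, and 0.12 without the block) and 72 h (0.15, edgeR adjusted p = 0.015), while it was lower from 96 h on.

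Genes next to the 10 were called lower or higher at some times, in counts near the shares over all genes, but mostly not at all times. Of 27 genes that flank or overlap them in the annotation, 15 could be tested at all 6 times, and the other 12 could not. Of the 15, 9 were called lower in p53KO–emiRFP cells at 1 or more times, against 46.7% of all genes tested at all times, and 8 were called higher at 1 or more, against 53.2% of all genes. Lgr6 alone was called lower at every time, against 1.51% of all genes. Lgr6, an R-spondin receptor gene, lies 3221 bases from Ptprv on the same strand, and its log2 fold change ranged from −2.22 to −0.65 (largest edgeR adjusted p = 0.012). On the other side of Ptprv, Ptpn7, a tyrosine phosphatase gene 106 bases away on the opposite strand, was called lower at 4 times, with values between −3.26 and −0.68. The overlapping Gm10535, opposite to Ptprv, passed the low-count filter at 2 times and was called lower at both. Its reads and those of Ptprv cannot be told apart without strand. Tbcd, which overlaps Zfp750, and Usp30, which overlaps Svop, had log2 fold changes of −0.27 to −0.02 and −0.04 to 0.45, with Tbcd called lower and Usp30 called higher at 2 times each. Ptpn7, Gm10535, Tbcd and Usp30 were named after their values were seen.

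In wild-type cells the genes differed widely in level. Per kilobase of exon, WT–mCherry cells of WT + WT gastruloids at 72 h had 691 ± 54.2 normalised counts of Inpp5d and 606 ± 37.4 of Eda2r (SD, n = 3 each). Inka2 followed with 253 ± 10.9, Svop with 186 ± 17.4 and Zfp750 with 152 ± 14.7 (SD, n = 3 each). D630023F18Rik (72.6 ± 5.15), Ptprv (72.1 ± 7.77) and Ano3 (66.9 ± 9.998) lay within the spread of each other, and so did Anxa8 (53.5 ± 15.7). 5830418P13Rik had 34.0 ± 6.04. Neighbours in this order had overlapping libraries except Eda2r and Inka2, Inka2 and Svop, Zfp750 and D630023F18Rik, and Anxa8 and 5830418P13Rik.

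Over time in WT–mCherry cells of WT + WT gastruloids, the 10 genes did not follow a common course until 72 h, and then all fell. Consecutive times were compared in an edgeR quasi-likelihood fit of the 33 WT–mCherry libraries. From 0 to 48 h, 6 genes fell and 2 rose (lower 30.5% and higher 27.7% of all genes), and from 48 to 72 h, 2 fell and 4 rose (lower 25.1%, higher 24.4%). From 72 to 96 h all 10 fell, against 19.9% of all genes. From 96 to 120 h, 2 fell and 2 rose (lower 17%, higher 19%), and from 120 to 144 h, 3 fell and 0 rose (lower 10.6%, higher 14.4%). From 72 to 96 h 21.3% of all genes rose.

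Svop, the vesicle protein gene, had the steepest rise between 48 and 72 h. It was at 75.2, 101 and 92.5 normalised counts at 48 h and at 872, 759 and 911 at 72 h, a log2 fold change of 3.23 ± 0.18 (SE, edgeR adjusted p = 3.7e-15). Ano3 rose from 130, 100 and 137 to 541, 402 and 506 (1.98 ± 0.17 SE, edgeR adjusted p = 4.3e-11). The kinase inhibitor gene Inka2 rose from 471, 413 and 445 to 1147, 1241 and 1234 (1.45 ± 0.15 SE, edgeR adjusted p = 1.7e-09). For all 3, the libraries of 48 and 72 h did not overlap, and their highest group mean in WT–emiRFP was at 72 h as well. Zfp750 rose by less (0.47 ± 0.19 SE, edgeR adjusted p = 0.039), while Inpp5d (−0.37 ± 0.08 SE) and D630023F18Rik (−0.52 ± 0.15 SE) fell. The rise of Zfp750 was no longer called without replicate 1 (edgeR adjusted p = 0.16) or 2 (edgeR adjusted p = 0.15), nor the fall of D630023F18Rik without replicate 3 (edgeR adjusted p = 0.060).

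The fall from 72 to 96 h was largest for 5830418P13Rik, from 103, 74.7 and 104 to 21.7, 28.4 and 17.3 normalised counts (−2.06 ± 0.26 SE, edgeR adjusted p = 1.4e-07). Anxa8 fell from 135, 82.5 and 84.7 to 49.2, 30.3 and 49.3 (−1.24 ± 0.30 SE, edgeR adjusted p = 0.0011), and Ano3 fell to 232, 202 and 239 (−1.11 ± 0.16 SE). Ptprv fell from 542, 528 and 442 to 225, 280 and 246 (−1.01 ± 0.20 SE, edgeR adjusted p = 0.00014). None of these 4 had overlapping libraries at the 2 times. The smallest fall was that of Eda2r, from 3607, 3335 and 3771 to 2798, 2432 and 3133 (−0.36 ± 0.11 SE, edgeR adjusted p = 0.0070). Without replicate 1, the falls of Eda2r and Zfp750 were no longer called, and without replicate 2 that of Zfp750.

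In WT–mCherry cells of WT + p53KO gastruloids, all 10 genes also had a lower mean at 96 than at 72 h, as did 48.9% of the genes tested. Trp53 itself was at 17073 ± 1260.2 and 16386 ± 481 normalised counts (SD, n = 3) at 72 and 96 h in WT–mCherry cells beside WT cells, a log2 fold change of −0.06 ± 0.07 (SE, edgeR adjusted p = 0.51). Of the 40 p53 target genes, 27 were called lower and 3 higher at 96 than at 72 h in the same fit (lower 19.9%, higher 21.3% of all genes). From 48 to 72 h, 3 were lower and 21 higher (lower 25.1%, higher 24.4% of all genes). The counts of targets over time were added after the values of the 10 genes were seen.

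**Figure D3:**
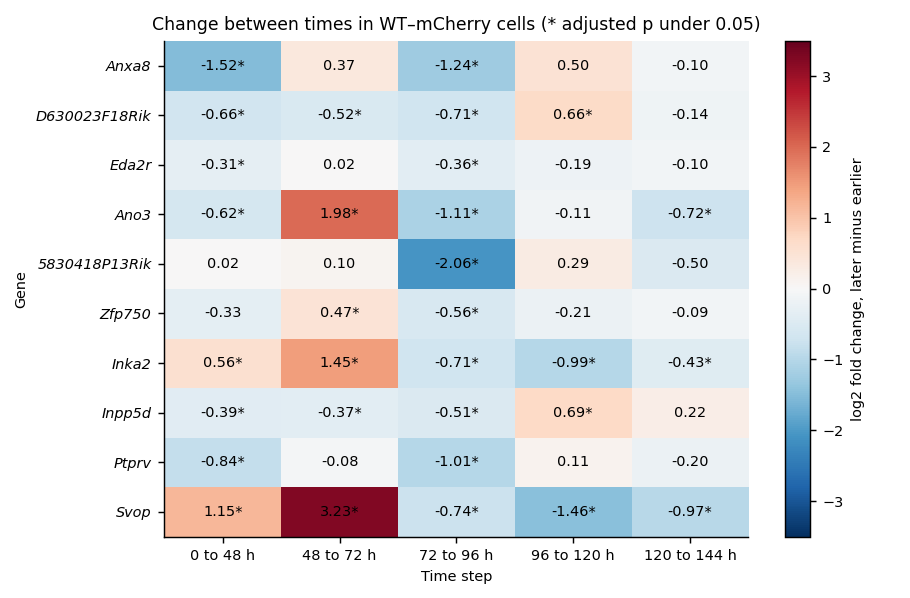
Log2 fold changes of the 10 genes (rows) between consecutive times (columns, in hours) in WT–mCherry cells of mES cultures and WT + WT gastruloids. Colour and number give the change, and asterisks mark an edgeR adjusted p under 0.05. The column from 72 to 96 h is the only one in which all 10 values are negative and marked.

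After 96 h the genes parted. From 96 to 120 h Inpp5d rose from 3996, 3829 and 3285 to 5430.4, 7004 and 5426 normalised counts (0.69 ± 0.09 SE, edgeR adjusted p = 1.3e-07), and D630023F18Rik rose by 0.66 ± 0.16. Svop fell further, to 198, 229 and 130 (−1.46 ± 0.17 SE, edgeR adjusted p = 3.3e-08), and so did Inka2 (−0.99 ± 0.15 SE). From 120 to 144 h Svop (−0.97 ± 0.19 SE), Ano3 (−0.72 ± 0.17 SE) and Inka2 (−0.43 ± 0.16 SE) fell again. Without replicate 2, the late falls of Svop (−0.67, edgeR adjusted p = 0.062) and Inka2 (−0.26, edgeR adjusted p = 0.41) were not called, nor was that of Inka2 when the fit left out WT–mCherry cells beside p53KO cells (edgeR adjusted p = 0.10). At the start of the series, from 0 to 48 h, Anxa8 fell most (−1.52 ± 0.27 SE) and Svop rose most (1.15 ± 0.25 SE). The falls of Eda2r and Ano3 in that step were no longer called without replicate 1, whose mES library stood apart, nor the rise of Inka2 without replicate 2 or 3.

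Across the 11 group means of WT–mCherry cells, the 45 pairs of the 10 genes had Pearson correlations from −0.79 (Inka2 and Inpp5d) to 0.92 (Eda2r and Ptprv), with a median of 0.37 and 32 above 0. These points share their libraries and are a description. Over all 23 group means, 14069 other genes with a mean of at least 50 normalised counts were compared with the mean of the 10 standardised profiles. The 5 most alike were Cpt1c (r = 0.993), Trp53inp1 (0.988), Gm37795 (0.986), Lif (0.984) and Exoc4 (0.982). These means include the p53KO–emiRFP groups, whose falls chose the 10 genes, so high correlations are partly built in.

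Wild-type cells with p53-deficient neighbours were then compared with wild-type cells among their own kind. WT + p53KO gastruloids were also seeded with fewer emiRFP cells than WT + WT gastruloids. The genotype of the neighbours, their number and the total of cells seeded therefore cannot be told apart. In this comparison, WT–mCherry cells from WT + p53KO against those from WT + WT gastruloids, some of the 10 genes were higher from 96 h on and none was called lower. By edgeR's quasi-likelihood test within a time point, 4 of 10 were higher at 96 h, 3 at 120 h and 7 at 144 h, where 2.87%, 3.41% and 10.1% of all genes were higher and 1.05%, 2.52% and 15.5% lower. At 48 h, 0 of 10 were called (0% of all genes higher, 0.0736% lower), with 1 at an unadjusted p under 0.05, and DESeq2 called 0. At 72 h, 0 of 10 were called (0.231% of all genes higher, 0.327% lower), with 1 at an unadjusted p under 0.05, and DESeq2 again called 0. The median log2 difference of the 10 genes was 0, 0.05, 0.51, 0.25 and 0.74 at 48, 72, 96, 120 and 144 h, and that of all genes between −0.03 and 0.

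Zfp750, the epidermal transcription factor gene, was higher beside p53KO cells at 96, 120 and 144 h. At 144 h it was at 597, 542 and 518 normalised counts beside p53KO cells and at 305, 286 and 225 beside WT cells, a log2 difference of 1.02 ± 0.12 (SE, edgeR adjusted p = 0.00014). At 96 h it was at 662, 529.98 and 455 against 378, 316 and 310 (0.72 ± 0.13 SE, edgeR adjusted p = 0.012). At 48 h it was at 359, 274 and 411 against 351, 307 and 403 (−0.03 ± 0.15 SE, edgeR adjusted p = 0.98). The libraries of both neighbours thus overlapped at 48 h and were separate at 96 h, at 120 h (0.61 ± 0.16 SE) and at 144 h.

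Svop was higher beside p53KO cells at the same 3 times. It was at 918, 815 and 707 normalised counts against 514, 507 and 504 at 96 h (0.68 ± 0.09 SE, edgeR adjusted p = 0.0035). At 120 h it was at 399, 344 and 261 against 198, 229 and 130 (0.86 ± 0.20 SE, edgeR adjusted p = 0.022). At 144 h it was at 199, 191 and 143 against 115, 79.2 and 88.6 (0.91 ± 0.23 SE, edgeR adjusted p = 0.010). No library beside p53KO cells lay within the range of those beside WT cells at these times, and the level fell over time beside both neighbours. Ano3 was also higher at 96 h (0.55 ± 0.14 SE, edgeR adjusted p = 0.043), 120 h (0.45 ± 0.11 SE, edgeR adjusted p = 0.032) and 144 h (0.65 ± 0.14 SE, edgeR adjusted p = 0.0052).

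Inpp5d was called at 144 h alone. It was then at 10266, 10488 and 10448 normalised counts beside p53KO cells and at 6639, 7401 and 6688 beside WT cells (0.59 ± 0.09 SE, edgeR adjusted p = 8e-04). At 120 h it was at 5698, 6426 and 5607 against 5430.4, 7004 and 5426 (−0.01 ± 0.10 SE, edgeR adjusted p = 0.97), so the groups overlapped at 120 h and not at 144 h. WT–emiRFP cells of 144 h, which had WT neighbours, were at 10043, 10494 and 10622.

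The remaining genes called at 144 h were Anxa8, 5830418P13Rik and Ptprv. Anxa8 was at 81.0, 141 and 116 normalised counts against 63.7, 70.7 and 31.9 (1.00 ± 0.28 SE, edgeR adjusted p = 0.019). 5830418P13Rik was at 44.2, 39.2 and 29.3 against 19.5, 19.4 and 19.6 (0.94 ± 0.27 SE, edgeR adjusted p = 0.021). Ptprv was at 506, 369 and 377 against 258, 232 and 213 (0.83 ± 0.17 SE, edgeR adjusted p = 0.0033). It was higher at 96 h too (0.70 ± 0.18 SE, edgeR adjusted p = 0.049), but not called there with only the compared groups (edgeR adjusted p = 0.059). The libraries of both neighbours did not overlap for any of these genes, nor for the 14 calls over all times, and 13.8%, 11.4% and 15.5% of all genes had higher groups without overlap at 96, 120 and 144 h.

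Eda2r, Inka2 and D630023F18Rik were not called at any time. Eda2r was at 2454, 2666 and 2679 normalised counts beside p53KO cells and at 2229, 2145 and 2488 beside WT cells at 144 h (0.19 ± 0.11 SE, edgeR adjusted p = 0.25). Inka2 had its largest difference at 120 h, 499.7, 484 and 489.6 against 349, 385 and 384 (0.40 ± 0.11 SE, edgeR adjusted p = 0.051), and the opposite sign at 144 h (−0.18 ± 0.15 SE, edgeR adjusted p = 0.41). With the replicate number as a block, 6 genes were higher at 96 h, with Eda2r (edgeR adjusted p = 0.0012) and Inka2 (edgeR adjusted p = 0.012) added, and 8 at 144 h, with D630023F18Rik (edgeR adjusted p = 0.045) added. In these blocked fits 11.7% and 15.1% of all genes were higher.

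**Figure D4:**
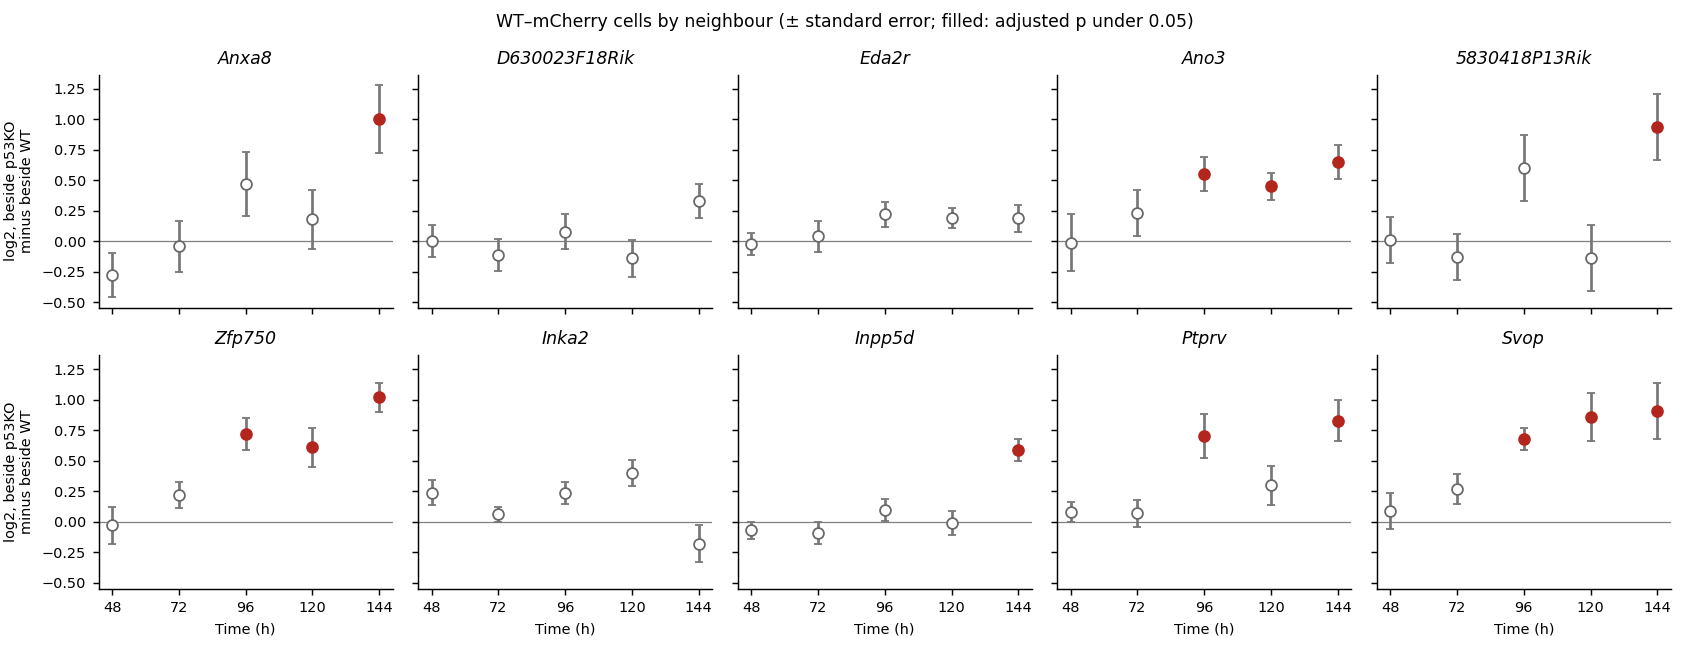
Log2 difference of WT–mCherry cells in WT + p53KO minus WT + WT gastruloids against time in hours, with standard errors from edgeR. Filled dots mark an adjusted p under 0.05, open dots the rest. Filled dots appear from 96 h on and are all above 0, 7 of them at 144 h, and the panels of D630023F18Rik, Eda2r and Inka2 hold none.

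Ano3, Zfp750, Inpp5d and Ptprv were called at 144 h whichever replicate was left out. Svop was not called without replicate 2, Anxa8 not without replicate 2 or 3, and 5830418P13Rik in none of these fits. Without replicate 2, 4 genes were called at that time. At 96 h, 0 genes were called without replicate 1 or without replicate 2, with edgeR adjusted p values of 0.076 to 0.44. At 120 h, 0 were called without replicate 1, 2 without replicate 2 and 1 without replicate 3, and 0 when the fit held only the compared groups. With TMM scaling the counts of all genes called higher and lower at 144 h were 2330 and 2365 in place of 1959 and 2999, and again 7 of the 10 genes were higher and 0 lower.

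Whether these differences changed over time was tested as well, and the count of genes called was near the share over all genes. A joint test of the neighbour difference at 72, 96, 120 and 144 h against that at 48 h called Inpp5d (edgeR adjusted p = 0.00085) and Zfp750 (edgeR adjusted p = 0.047), that is 2 of 10 genes, against 10% of all genes. The log2 difference of 144 h exceeded that of 48 h by 1.28 ± 0.40 in Anxa8, 1.05 ± 0.27 in Zfp750 and 0.66 ± 0.12 in Inpp5d (SE, edgeR adjusted p = 0.044, 0.014 and 0.00073), and 3.56% of all genes had such a rise. Without replicate 1, 0 of the 10 genes were called in the joint test, and without replicate 2 or 3, 1 was. The rise of the difference from 48 to 144 h was no longer called in Anxa8 and Zfp750 whichever replicate was left out, at 0.96 to 1.59 in Anxa8 and 1.00 to 1.11 in Zfp750. With the replicate number as a block, Svop (edgeR adjusted p = 0.024), Ano3 (0.037) and Ptprv (0.040) had such a rise too, 6 of 10 genes, against 6.31% of all genes.

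Part of the wider pathway was higher as well. Of the 40 p53 targets, 0, 0, 10, 11 and 18 were higher beside p53KO cells at 48, 72, 96, 120 and 144 h, and 0, 0, 1, 2 and 0 were lower. Of all genes tested, 0%, 0.231%, 2.87%, 3.41% and 10.1% were higher and 0.0736%, 0.327%, 1.05%, 2.52% and 15.5% lower. With the replicate number as a block, 3, 1, 23 and 22 were higher at 48, 72, 96 and 144 h, where 1.25%, 1.16%, 11.7% and 15.1% of all genes were, and 1, 1, 2 and 0 were lower, where 3.69%, 1.11%, 9.19% and 22.2% were. Trp53 was at 14611 ± 639 normalised counts beside p53KO and 16754 ± 684 beside WT cells at 144 h (SD, n = 3), a log2 difference of −0.20 ± 0.07 (SE, edgeR adjusted p = 0.040).

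A gene that told the clones apart as mES cells was followed as a possible sign of RNA of the other clone. H2bc14, a histone H2B gene, was the only gene with at least 200 normalised counts in all mES libraries with the emiRFP construct and at most 20 in those of WT–mCherry. In WT–mCherry cells of WT + p53KO gastruloids its mean was 0.352%, 1.07%, 2.397%, 5.56% and 9.53% of that in p53KO–emiRFP cells at 48, 72, 96, 120 and 144 h. In WT–mCherry cells of WT + WT gastruloids it was between 0.640% and 1.62% of the WT–emiRFP level. WT–mCherry cells were sorted only from gastruloids with emiRFP cells, so their own H2bc14 RNA cannot be told apart from that of the other clone. The 7 genes called at 144 h had means of 0.323 to 443.7 normalised counts in p53KO–emiRFP cells, below those of WT–mCherry cells beside either neighbour. At 144 h H2bc14 was at 926, 130 and 456 normalised counts beside p53KO and at 136, 13.98 and 104 beside WT cells. The groups overlapped, but H2bc14 was higher beside p53KO cells in each same-numbered pair. Without the highest library, its share of the p53KO–emiRFP level was 0.325%, 0.583%, 1.61%, 4.79% and 5.54% at the 5 times, an alternative chosen after seeing the data. The highest library was replicate 2 from 48 to 96 h and replicate 1 at 120 and 144 h. Its part in the results was not tested. No gene met the mirrored rule for WT–mCherry, so RNA of WT–mCherry cells in p53KO–emiRFP libraries was not measured, and its part in the late levels of Ano3 and Inka2 was not tested.

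Markers of cell types in which some of the genes are known were followed in the same comparison. In bulk samples, fewer cells of a type and less RNA per cell cannot be told apart. At 144 h, 10.1% of all genes were higher and 15.5% lower beside p53KO cells, or 15.1% and 22.2% with the replicate number as a block. Of 11 tested haematoendothelial genes, 0 were higher and 4 lower beside p53KO cells, 1 higher and 5 lower with the block, and with a summed level of 6808 to 7438 normalised counts against 6661 to 7244 beside WT cells. The endothelial receptor gene Kdr was at 369 beside p53KO and 901 beside WT cells on average (log2 difference −1.29 ± 0.14 SE, edgeR adjusted p = 8.5e-05). Among the blood genes, Runx1 was at 141 and 98.8 (edgeR adjusted p = 0.21), Spi1 at 39.1 and 26.7 (0.24) and Gata1 at 31.3 and 24.9 (0.40). In any library, Kdr reached 1460.5 normalised counts, Gata1 223, Runx1 220.05, Spi1 104 and Ptprc 9.84. Of 12 surface ectoderm genes, 3 were higher and 1 lower (summed level 36025 to 41550.2 against 30827 to 36500), and 6 higher and 1 lower with the block. The higher ones were the keratin gene Krt15 (138 beside p53KO and 39.4 beside WT cells, log2 difference 1.79 ± 0.28 SE, edgeR adjusted p = 0.00064) and the transcription factor genes Grhl3 (0.29 ± 0.06 SE, edgeR adjusted p = 0.0054) and Tfap2c (0.30 ± 0.09 SE, edgeR adjusted p = 0.025). With the block, Krt18, Cdh1 and Epcam were added. The epidermal keratin genes Krt5 and Krt14 reached at most 46.0 and 30.3. The lower one, the epidermal regulator gene Trp63, was at 17.7 beside p53KO and 55.6 beside WT cells (log2 difference −1.63 ± 0.35 SE, edgeR adjusted p = 0.0046). Of 12 neuronal genes, 0 were higher and 7 lower at 144 h (3385 to 3690.2 against 4687 to 5367). At 96 h, 2 of 10 tested neuronal genes were higher and 0 lower (3559 to 4077 against 3179 to 3758), and at 120 h 2 were higher and 1 lower (2333 to 2488 against 2652.5 to 2917). At 96 and 120 h, 1 of the tested surface ectoderm genes was higher and 1 lower at each time, and with the block 4 were higher and 2 lower at 96 h. Of the haematoendothelial genes, 0 were higher and 0 lower at 96 h, and 1 higher and 4 lower at 120 h. Ptprc was at 0 in every WT–mCherry library beside p53KO cells at 96 h. The part of cell types in the results was not tested.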

How the data were processed

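Bulk RNA sequencing of 69 libraries was analysed from 1 table of raw counts per gene symbol that the authors deposited. Per the study's methods and the submitters' processing notes, reads were trimmed with Trim Galore 0.6.7, aligned to GRCm38.p6 with STAR 2.7.11b and counted by STAR per Gencode gene (v.25, uniquely mapped reads). Gene positions here are from Gencode M21. Whether the strand was used in counting is not given in the sources used here. No column was left out, and 96.3% of the symbols were found in that release. At most 11.8% of expressed genes had the same count in 2 replicates of a group, so none was taken as a duplicate. The authors used PyDESeq2 to normalise them for their own analyses.

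Here counts were scaled by median-of-ratios size factors over all libraries, filtered with edgeR's filterByExpr by group and tested with edgeR 4.0.16 (R 4.3.3, quasi-likelihood test, Benjamini-Hochberg adjustment over all tested genes, threshold 0.05). A time point was fitted with its 12 libraries (9 at 0 h), and time steps with the 33 WT–mCherry libraries. With 3 libraries a group, the smallest exact p would be 0.1. Groups and replicate numbers follow the sample labels. The replicates came from 3 separate experiments, but no source ties an experiment to a number. After subtraction of group means, libraries with the same number correlated at 0.072 to 0.626 in the comparison by neighbour, above 0.1 in all pairs but 1, at 120 h, and at −0.041 to 0.591 in the time steps, with 5 of 15 pairs at most 0.1. Each correlation ran over 14078 genes, no independent replicates. For p53KO–emiRFP against WT–emiRFP they were 0.118 to 0.494. Numbers were therefore taken as pairs for that contrast and for the neighbour at 48, 72, 96 and 144 h. Intervals and floors cover counting error only.

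The 10 genes and all gene lists were chosen with earlier results of these data known. Named are these genes, Trp53, the 3 lowest p53 targets and those higher at 2 or more times, flanking genes called at all 6 times in 1 direction, the 3 genes next in rank and the 5 most alike. Alternatives were TMM, no low-count filter, the replicate block, DESeq2 1.42.0, only the compared groups and each replicate left out. On simulated data with 200 genes changed 2-fold, the test recovered 92% (neighbour at 120 h, 18692 genes) and 78% (neighbour by time, 19506 genes). Of the calls, 6.12% and 5.45% were false. The simulation gave all genes the same dispersion and no replicate effect, so it does not give the power for the 10 genes.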

Additional observations from a re-analysis of the deposited data

Results flagged for a closer look

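The difference of WT–mCherry cells by neighbour was not the same at all times for Inpp5d and Zfp750, by a joint test of the differences at 72, 96, 120 and 144 h against that at 48 h (edgeR quasi-likelihood test over 33 libraries). The adjusted p was 0.00085 for Inpp5d and 0.047 for Zfp750. These are 2 of 10 genes, and 10% of all genes were called, so the count is near the background. With TMM 1 of the 10 genes was called, and without 1 replicate 0 to 1. The log2 difference of Inpp5d was −0.07 at 48 h and 0.59 at 144 h, and it was higher beside p53KO cells in 3 of 3 same-numbered pairs at 144 h. That of Zfp750 was −0.03 at 48 h, 0.72 at 96 h and 1.02 at 144 h, and it was higher in 3 of 3 pairs at 96 and 144 h. H2bc14, the gene particular to the emiRFP clones among mES cells, was followed in the WT–mCherry libraries beside p53KO cells. It was at 22.5 to 28.8 normalised counts at 48 h and at 130 to 926 at 144 h. Its part in these differences was not tested. The part of the number of emiRFP cells seeded, which differed between the compared gastruloids, was not tested either. At 144 h, Inpp5d was at 443.7 and Zfp750 at 27.3 normalised counts in p53KO–emiRFP cells, below their levels in WT–mCherry cells.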

How the results depend on the processing

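No direction of a called result was reversed under any alternative run. The fall of the 10 genes from 72 to 96 h was called for all 10 with TMM, no low-count filter, the replicate block, DESeq2 and only WT–mCherry cells of mES cultures and WT + WT gastruloids, and for 8 to 10 without 1 replicate. By neighbour, with only the compared groups 0 genes were called at 120 h, and with the replicate block, whose numbers do not pair the samples at that time, 5. Without 1 replicate, 0 to 3 genes were called at 96 h, 0 to 2 at 120 h and 4 to 6 at 144 h. At 120 h, 4 genes were called with TMM and 4 with DESeq2. With no low-count filter 2 further calls by neighbour were made over all times, while Ano3 was not called at 120 h. With only the compared groups Ptprv was not called at 96 h. The joint test over time called 1 gene with TMM, 5 with no low-count filter, 3 with the replicate block and 0 to 1 without 1 replicate. In the time steps the block added Eda2r from 96 to 120 h and Inpp5d from 120 to 144 h. It changed no call of the 10 genes from 48 to 96 h. The numbers were not taken as pairs from 0 to 48 h and after 96 h. For the description without p53, the median log2 fold change without 1 replicate ranged from −5.18 to −4.80 at 0 h, −5.84 to −5.19 at 48 h, −7.29 to −6.59 at 72 h, −5.95 to −5.76 at 96 h, −5.33 to −5.01 at 120 h and −4.57 to −4.24 at 144 h. The cause of these changes was not tested. Low counts limit Anxa8, 5830418P13Rik, D630023F18Rik and Ano3, some of whose p53KO–emiRFP levels are bounds or rest on a few counts.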
